A study of Mus musculus with 10 samples.

Results

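The genes described here are 9 members of the immunoglobulin superfamily that mediate contacts between Sertoli cells and germ cells, or are close relatives of such genes. They were selected by symbol: *Cadm1*, *Cadm2*, *Cadm3* and *Cadm4*, *Nectin1*, *Nectin2* and *Nectin3*, *Igsf11* and *Hepacam*. All 9 were found among the 17816 genes of the day 7 table and among the 20007 genes of the adult table. RNA was sequenced from 2 materials of the mouse. The first was cultured Sertoli cells, the somatic cells that nurse the germ cells inside the seminiferous tubules, from testes at 7 days after birth, with 2 control and 2 *Amh-Rnf20*-/- samples. The second was whole adult testis, with 3 control samples and 3 samples labelled as *Rnf20* conditional knockout.

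*Rnf20* codes for an E3 ligase that ubiquitinates histone H2B. In the *Amh-Rnf20*-/- mice, floxed *Rnf20* is cut by a Cre recombinase under the *Amh* promoter, which is active in Sertoli cells, so germ cells, Leydig cells and other testis cells keep the gene. The labels call the controls of both tables WT, and the study's methods give the genotype of the day 7 controls as *Rnf20* Flox/Flox. The adult controls are known from the label alone, and the study's text does not describe the adult RNA-seq. The day 7 cells were digested from tubules, plated and passaged several times, and the methods give more individuals per group than the 2 samples analysed here, without tying individuals to samples. For the adult table the sources used here do not say whether samples came from separate animals. The p-values measure the spread between these samples, part of which may be technical.

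Nectins and CADM proteins (also called nectin-like molecules) stand on the cell surface and bind partners on the neighbouring cell without calcium, often a different member of the family. Nectins are tied to the actin cytoskeleton by afadin. In the seminiferous epithelium, NECTIN2 of Sertoli cells is known to pair with NECTIN3 of spermatids, and CADM1 of germ cells with PVR of Sertoli cells. IGSF11 is a relative of the CXADR group of junction proteins, and HEPACAM is best known from glia, where it holds MLC1 and the chloride channel CLCN2 at cell junctions.

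Total estimated counts per sample ran from 17477268 to 17705347 at day 7 and from 15431912 to 16574144 in adult testis. *Rnf20* had levels of 16.6 and 16.01 FPKM (fragment counts scaled by gene length and sequencing depth) in the day 7 controls and of 10.3 and 12.6 FPKM in the *Amh-Rnf20*-/- cells. In adult testis it did not differ beyond the spread between samples after TMM scaling (log2 fold change 0.12, adjusted p = 0.688 by edgeR). With total-count scaling it passed as higher in the samples labelled as knockout (0.97, adjusted p = 0.0168 by edgeR), where its mean was 8.26 FPKM against 4.1 in the controls, without overlap. It was lower there on neither scale, so the labels of the adult samples have no check from the targeted gene. A transcript that has lost the floxed exons still counts towards *Rnf20* here. The chi-square per degree of freedom between the samples of a day 7 group was 34.3 for the *Amh-Rnf20*-/- cells against 2.65 for the controls. Replicate 1 of the adult samples labelled as knockout stood apart from the other 2, with 88.1 and 118 in the pairs with replicate 1 and 21.4 without it. Of the Sertoli cell markers, *Sox9* was at 41.8 and 39.4 FPKM in the day 7 controls and at 10.2 and 25.7 in the *Amh-Rnf20*-/- cells. *Wt1* was at 69.6 and 70.5 in the controls and at 44.2 and 52.9 in the *Amh-Rnf20*-/- cells, lower without overlap. Over the 18 Sertoli markers listed, mean levels in the day 7 controls ran from 0.27 FPKM for *Rhox5* to 910 for *Clu*, and *Fshr* was at 1.88.

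RefSeq on GRCm38.p6 places *Cadm1* (Entrez 54725) at chr9:47530170-47862280, *Nectin1* (58235) at chr9:43737075-43807461 and *Hepacam* (72927) at chr9:37367356-37386572. *Cadm2* (239857) lies at chr16:66655416-67620917, *Nectin3* (58998) at chr16:46387665-46498535 and *Igsf11* (207683) at chr16:38892476-39027159. *Nectin2* (19294) lies at chr7:19716644-19749573, *Cadm4* (260299) at chr7:24482023-24504533 and *Cadm3* (94332) at chr1:173331892-173368139. All 9 code for proteins, and *Cadm3* alone overlaps other protein-coding genes.

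The starts of *Nectin2* and *Nectin3* are shown because these genes gave the clearest opposite pattern in adult testis. Each sequence is the 250 bases before the gene's start in RefSeq on GRCm38.p6, read 5' to 3' on the strand of the gene, and capitals mark GGGCGG, the GC box. The *Nectin2* window is chr7:19749574-19749823 on the minus strand and the *Nectin3* window is chr16:46496968-46497217 on the minus strand. Neither overlaps an annotated exon, and the *Nectin3* window lies inside the longest span annotated for that gene.
Nectin2: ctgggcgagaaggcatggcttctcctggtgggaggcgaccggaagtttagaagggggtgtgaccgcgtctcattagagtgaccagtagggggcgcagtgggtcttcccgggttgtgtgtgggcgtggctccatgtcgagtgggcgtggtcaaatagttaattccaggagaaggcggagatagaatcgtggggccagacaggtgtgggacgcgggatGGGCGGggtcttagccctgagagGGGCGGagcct
Nectin3: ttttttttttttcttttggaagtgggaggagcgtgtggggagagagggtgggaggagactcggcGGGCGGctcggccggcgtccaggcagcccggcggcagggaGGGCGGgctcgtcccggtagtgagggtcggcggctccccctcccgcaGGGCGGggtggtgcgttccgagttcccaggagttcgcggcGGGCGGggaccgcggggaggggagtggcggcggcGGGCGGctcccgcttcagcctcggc
The *Nectin3* window holds 5 GC boxes and the *Nectin2* window 2, and 32.7% of 32851 promoter windows of this length hold at least 1 on either strand. GC content was 73.2% in *Nectin3* and 62.0% in *Nectin2*, beside a median of 52.4% over all windows. The CRE core TGACG (in 17.8% of all windows), the GATA core AGATAA (9.99%) and the SOX core ACAAT (27.7%), each searched on both strands and none contained in another, matched neither window. These matches describe letters and are not evidence of binding. In the promoter table used here 7 of the 9 genes had an entry, and *Cadm1* and *Nectin1* are named without one.

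In the day 7 control cells *Nectin2* was the most abundant of the 9 genes, followed by *Cadm4*, *Cadm1*, *Nectin3*, *Igsf11*, *Nectin1*, *Hepacam*, *Cadm3* and *Cadm2* on the FPKM scale. No 2 neighbours in that order overlapped between their 2 control samples. Mean control levels ran from 219 FPKM for *Nectin2* to 0.015 for *Cadm2*, which had between 2 and 5 estimated counts in each of the 4 samples and did not pass the filter on low values. In the *Amh-Rnf20*-/- cells *Nectin2* and *Cadm4* remained the 2 highest, and *Cadm3* took a place above *Igsf11* and *Hepacam* with overlapping ranges. The plot of levels by sample shows both tables.

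**Figure D1:**
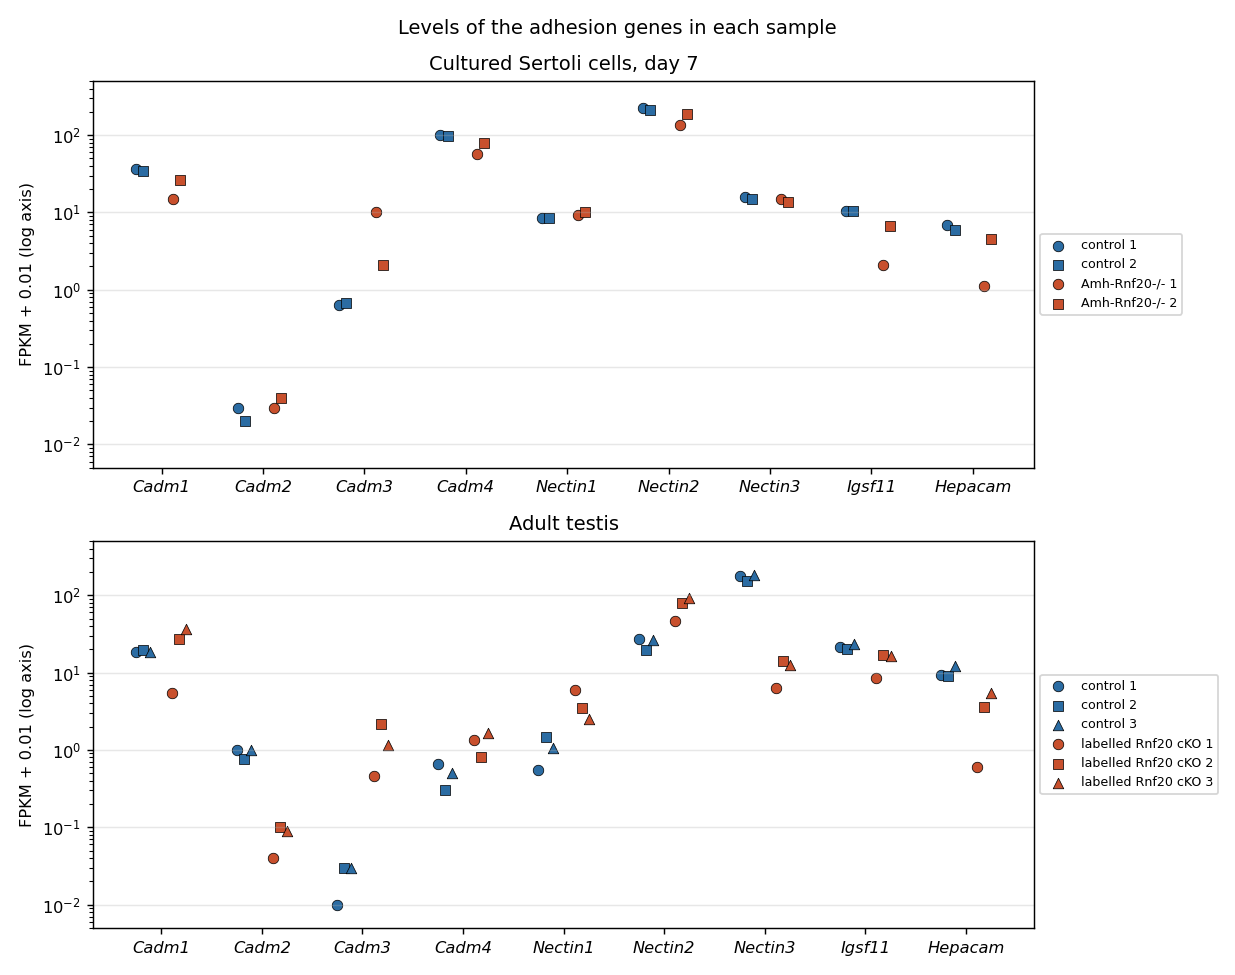
FPKM + 0.01 of each of the 9 adhesion genes on a log axis, 1 point per sample, for cultured Sertoli cells at day 7 (top, 2 against 2) and adult testis (bottom, 3 against 3). At day 7 *Cadm3* lies at 10.2 and 2.10 FPKM in the *Amh-Rnf20*-/- samples and at 0.62 and 0.66 in the controls, and in adult testis *Nectin3* runs from 155 to 181 in controls, against 6.32 to 14.0 in the samples labelled as knockout.

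At day 7 none of the 8 members tested passed an adjusted p of 0.05 by edgeR's quasi-likelihood test, and neither did any other of the 12880 genes tested (0% called). At an unadjusted p under 0.05, *Cadm3* and *Cadm4* were counted, 2 of 8 members beside 15.5% of all genes, and DESeq2 called 1 member, *Cadm3*, as higher, beside 4.5% of all genes, 3% as higher. On TMM-scaled counts the groups did not overlap for 7 of the 8 members, 5 lower and 2 higher in the *Amh-Rnf20*-/- cells, where 51% of all genes did not overlap, 26.1% lower and 24.8% higher. The median log2 fold change was -0.45 over the 8 members and -0.0039 over all genes tested. The 9 genes were chosen with earlier results of these same cells known, so their direction is not independent evidence.

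Among the CADM genes, *Cadm1* codes for the adhesion protein best known from spermatogenic cells. It had FPKM values of 36.6 and 34.1 in the controls and of 14.8 and 26.5 in the *Amh-Rnf20*-/- cells. Both knockout samples were below both controls, and replicate 1 was the lower of them. The log2 fold change was -0.74 (SE 0.29, adjusted p = 0.331 by edgeR).

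*Cadm4*, known from contacts of glia with axons, was at 98.9 and 96.6 FPKM in the controls and at 57.3 and 78.7 in the *Amh-Rnf20*-/- cells. The groups did not overlap, and the log2 fold change was -0.49 (SE 0.16, adjusted p = 0.295 by edgeR). *Cadm3*, a member of the family known mainly from neurons, was at 0.62 and 0.66 FPKM in the controls and at 10.2 and 2.10 in the *Amh-Rnf20*-/- cells, both above both controls. Its log2 fold change was 3.36 (SE 0.86), with an adjusted p of 0.222 by edgeR and of 2.80e-05 by DESeq2. Without knockout replicate 1 the log2 fold change of *Cadm3* was 1.78, and without knockout replicate 2 it was 4.10.

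The *Cadm3* counts carry a limit that the other 8 genes do not. The gene overlaps *Ackr1* on its own strand and *Aim2* on the opposite strand, and its estimated counts were not whole numbers in any of the 4 day 7 samples. *Ackr1* took the remainder, so that the counts of these 2 genes added up to a whole number in every sample, with 11.1 for *Ackr1* beside 739 for *Cadm3* in knockout replicate 1. Of the 5 glial and neuronal markers tested, 3 were higher without overlap in the *Amh-Rnf20*-/- cells on TMM-scaled counts, *S100b* (1.22), *Ncam1* (0.50) and *Mbp* (0.11), and 1 was lower, *Tubb3* (-0.98), beside 24.8% of all genes higher and 26.1% lower. These 5 had a median of 0.28 on the log2 scale, and the mean of *Mbp* in FPKM was lower, at 5.29 against 5.71 in the controls. None of these 5 passed an adjusted p of 0.05 by edgeR, and their part in the difference of *Cadm3* was not tested.

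The nectins differed less. *Nectin2* was at 225 and 213 FPKM in the controls and at 137 and 189 in the *Amh-Rnf20*-/- cells, a log2 fold change of -0.42 (SE 0.17, adjusted p = 0.351 by edgeR) without overlap. *Nectin1*, also known as an entry receptor of herpesviruses, was at 8.42 and 8.56 FPKM against 9.19 and 10.03, with a log2 fold change of 0.22 (SE 0.09, adjusted p = 0.34 by edgeR). *Nectin3* was at 15.8 and 15.1 FPKM against 15.04 and 13.7, and was the member tested whose groups overlapped on TMM-scaled counts. Its log2 fold change was -0.05 (SE 0.10), and it changed sign to 0.025 without knockout replicate 2.

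*Igsf11* and *Hepacam* had the most negative fold changes of the 8. *Igsf11* was at 10.4 and 10.5 FPKM in the controls and at 2.11 and 6.63 in the *Amh-Rnf20*-/- cells, a log2 fold change of -1.22 (SE 0.53, adjusted p = 0.367 by edgeR). *Hepacam* was at 6.87 and 5.94 FPKM against 1.12 and 4.46, a log2 fold change of -1.16 (SE 0.63, adjusted p = 0.444 by edgeR). In both genes the knockout samples differed from each other more than replicate 2 differed from the controls.

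The size of most fold changes at day 7 turned on which *Amh-Rnf20*-/- sample was kept. *Nectin1* moved less, with a log2 fold change of 0.28 without replicate 1 and of 0.16 without replicate 2. Without replicate 1, *Igsf11* was at -0.62, *Hepacam* at -0.49, *Cadm1* at -0.38, *Cadm4* at -0.28 and *Nectin2* at -0.20 on the log2 scale. Without replicate 2 the same genes were at -2.26, -2.47, -1.21, -0.73 and -0.67. The direction was the same in both cases, and these fits assume that the lone knockout sample varies like the controls. Under that assumption 7 members passed without replicate 1 and 6 without replicate 2, beside 2757 and 5136 of all genes.

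Markers of other cell types moved with these genes at day 7, and their part in the differences was not tested. On TMM-scaled counts, 26.1% of all genes tested were lower without overlap and 24.8% were higher. Of 17 Sertoli markers tested, 11 were lower without overlap and 2 were higher, of which *Rhox5* passed the filter through the knockout samples alone. The summed FPKM of the 18 markers ran from 1651 to 1838 in the controls, against 992.5 and 1368 in the *Amh-Rnf20*-/- cells. All 8 peritubular myoid markers and all 6 stromal fibroblast markers were higher without overlap, with summed FPKM of 2017 to 2138 against 3704 to 3754 for the myoid list and of 2152 to 2236 against 3306 to 3920 for the fibroblast list. The spermatogonium markers were lower without overlap in 12 of 15, *Zbtb16* among them through the controls alone, at 227 to 233 against 160.4 to 160.6 FPKM. Leydig markers were higher without overlap in 3 of 4, with sums of 149 to 156 FPKM in the controls against 205 to 301. Spermatocyte markers were lower without overlap in 4 of 5, with sums of 8.45 to 11.28 FPKM against 5.77 to 6.47. Among those 5, *Sycp2* and *Hormad1* passed the filter through the controls alone. Spermatid markers summed to 2.21 FPKM at most in any day 7 sample. Levels were therefore also taken relative to the mean log2(FPKM + 0.1) of the 18 Sertoli markers in the same sample. On that scale *Igsf11* (-0.82), *Hepacam* (-0.83) and *Cadm1* (-0.21) were lower in both *Amh-Rnf20*-/- samples, *Cadm3* (3.31), *Nectin1* (0.80) and *Cadm2* (0.75, near 0 FPKM in every sample) were higher, and *Cadm4*, *Nectin2* and *Nectin3* overlapped. With the median of the markers in place of the mean, the difference of *Cadm1* changed sign to 0.47, *Igsf11* and *Hepacam* were at -0.15 and -0.16, and *Nectin1*, *Nectin2* and *Cadm4* were at 1.48, 0.86 and 0.76, so that 8 of the 9 members in place of 6 did not overlap. Of all genes tested, 48.3% did not overlap relative to the mean of the markers and 90.8% relative to their median. With the mean and without knockout replicate 1, *Cadm3* was at 1.70, *Igsf11* at -0.52, *Hepacam* at -0.38 and *Nectin1* at 0.37. Without knockout replicate 2 these were 4.92, -1.13, -1.29 and 1.24. The exact permutation test of 2 samples against 2 cannot give a p under 0.333, the value of each of these 6 differences.

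Adult testis showed a different order of levels. In the controls *Nectin3* was the most abundant of the 9 genes at 171 ± 13.8 FPKM (SD, n = 3), followed by *Nectin2* (24.3 ± 4.03) and *Igsf11* (21.8 ± 1.54), whose ranges overlapped. *Cadm1* (18.9 ± 0.484) and *Hepacam* (10.1 ± 1.67) came next. *Nectin1*, *Cadm2*, *Cadm4* and *Cadm3* had means of 1.02, 0.907, 0.473 and 0.0133 FPKM, and *Nectin1* and *Cadm2* overlapped. In the samples labelled as knockout, *Nectin2* was the highest at 72.6 ± 23.3 FPKM (SD, n = 3), and *Cadm1*, *Igsf11* and *Nectin3* followed with overlapping neighbours. *Cadm2* was the lowest there, at 0.0667 ± 0.0321 FPKM.

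The adult groups differed at most genes, and the calls of several members turned on the scaling between samples. edgeR called 81.5% of the 15919 genes tested, 40.9% higher and 40.6% lower in the samples labelled as knockout. TMM factors were 0.71 to 0.761 in the controls and 1.27 to 1.42 in the knockout-labelled samples, and total-count scaling shifted the median over all genes, as a log2 fold change, from 0.01 to 0.87. With it the share of higher genes among the calls went from 50.1% to 64.3%. FPKM values follow the total-count scale, so a gene can be higher in FPKM and lower after TMM scaling.

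In adult testis 5 of the 8 members tested passed an adjusted p of 0.05, with 4 lower and 1 higher. That share is below the 81.5% of all genes called. The balance of directions turned with the scaling, since with total-count scaling 3 passed as higher (*Cadm4*, *Nectin1* and *Nectin2*) and 2 as lower (*Nectin3* and *Cadm2*), beside 54.1% and 30% of all genes. On FPKM, which follow that scale, limma gave 3 and 3, beside 53.5% and 30.7% of all genes with log2(FPKM + 0.1). At the study's thresholds (absolute log2 fold change over 1 and FDR under 0.001) 2 members passed, *Nectin3* and *Cadm2*, beside 46.7% of all genes. On TMM-scaled counts 5 of 8 members did not overlap between groups, 4 lower and 1 higher, beside 85.5% of all genes, 43.1% lower and 42.4% higher. The median log2 fold change was -1.06 over the 8 members and 0.01 over all genes tested. *Cadm3* was not tested, since it reached 0.5 FPKM in 2 of 6 samples. *Cadm2* passed the filter through its control samples alone, so that it had to differ, and the same holds for 15.1% of all genes tested in adult testis, which passed through all samples of 1 group and none of the other.

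**Figure D2:**
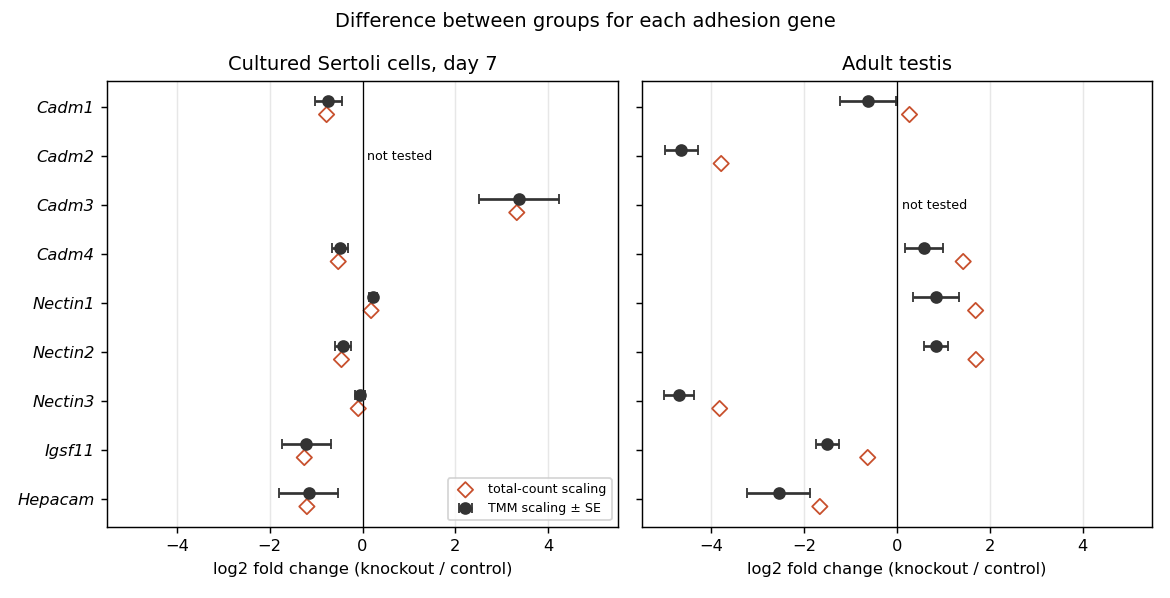
log2 fold change of each adhesion gene, knockout over control, at day 7 (left) and in adult testis (right). Filled points give edgeR estimates after TMM scaling with bars of 1 SE, open diamonds the estimates after total-count scaling, and genes under the filter are marked as not tested. *Nectin3* and *Cadm2* lie far below 0 in adult testis under both scalings, while *Cadm1* changes sign.

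*Nectin3*, the nectin of elongating spermatids, was at 176, 155 and 181 FPKM in the adult controls and at 6.32, 14.0 and 12.4 in the samples labelled as knockout. The highest knockout-labelled sample was 11.1-fold below the lowest control on the FPKM scale. After TMM scaling the log2 fold change was -4.69 (SE 0.32, adjusted p = 5.67e-05 by edgeR), and with total-count scaling it was -3.82. *Cadm2* was at 0.98, 0.75 and 0.99 FPKM in the controls and at 0.03, 0.09 and 0.08 in the knockout-labelled samples, a fitted log2 fold change of -4.65 (SE 0.36), given as a description. Spermatid markers fell with *Nectin3*: all 12 passed as lower, and their summed FPKM went from between 126220 and 195200 to between 4.67 and 96.9. Spermatocyte markers passed as lower in 8 of 12, with sums of 5038 to 5271 FPKM in the controls, against 2.84, 287 and 403 in knockout-labelled replicates 1, 2 and 3. Of all genes tested, 40.6% passed as lower. In whole testis, fewer cells of a type and less RNA per cell cannot be told apart.

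*Nectin2*, the partner of NECTIN3 on Sertoli cells, was at 26.9, 19.7 and 26.4 FPKM in the controls and at 46.7, 79.6 and 91.6 in the knockout-labelled samples. The groups did not overlap, and it rose by a log2 fold change of 0.83 (SE 0.26, adjusted p = 0.0244 by edgeR), where the adjusted p ranged from 3.59e-05 to 0.0854 over the alternatives. With RLE scaling it was 0.0531 and with DESeq2 0.0508. Leaving out knockout-labelled replicate 1 gave a log2 fold change of 1.19, and leaving out control replicate 2 gave 0.71 with an adjusted p of 0.0854.

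*Nectin1* was at 0.54, 1.45 and 1.06 FPKM in the controls and at 5.93, 3.5 and 2.54 in the knockout-labelled samples. It did not pass after TMM scaling (log2 fold change 0.84, SE 0.49, adjusted p = 0.157 by edgeR) and passed with total-count scaling (1.69, adjusted p = 0.0137). *Cadm4* was low, at 0.64, 0.29 and 0.49 FPKM against 1.33, 0.81 and 1.67. Its log2 fold change was 0.58 (SE 0.41, adjusted p = 0.231 by edgeR) after TMM scaling and 1.42 (adjusted p = 0.0203) with total-count scaling.

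*Cadm1* was at 18.7, 19.4 and 18.5 FPKM in the adult controls and at 5.49, 26.8 and 36.8 in the samples labelled as knockout. Replicate 1 was below every control and the other 2 knockout-labelled samples were above every control, so the groups overlapped. The log2 fold change was -0.63 (SE 0.59, adjusted p = 0.359 by edgeR), -0.04 without knockout-labelled replicate 1 and 0.27 with total-count scaling. The spermatogonium markers stood in the same order in the knockout-labelled samples, with summed FPKM of 62.1 in replicate 1, 330 in replicate 2 and 472 in replicate 3, against 284 to 317 in the controls. The sums of the Sertoli and the spermatocyte markers, given beside the other genes, had that order too. Of the 13 spermatogonium markers tested, 3 passed as higher and 5 as lower, beside 40.9% and 40.6% of all genes. Of the 3, *Zbtb16* passed the filter through the knockout-labelled samples alone. The markers' part in the pattern of *Cadm1* was not tested.

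*Igsf11* was at 21.8, 20.3 and 23.4 FPKM in the controls and at 8.54, 17.0 and 16.5 in the knockout-labelled samples, without overlap. It fell by 1.502 on the log2 scale after TMM scaling (SE 0.25, adjusted p = 0.00165 by edgeR), and did not pass with total-count scaling (-0.63, adjusted p = 0.0702, in a range from 1.70e-08 to 0.0702 over the alternatives). *Hepacam* was at 9.2, 9.1 and 12.04 FPKM against 0.60, 3.57 and 5.39, and replicate 1 was again the lowest. It fell by 2.55 on the log2 scale (SE 0.68, adjusted p = 0.0124 by edgeR), and did not pass with total-count scaling (-1.66, adjusted p = 0.0613, in a range from 1.88e-05 to 0.0613).

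Without knockout-labelled replicate 1 the log2 fold changes were -4.31 for *Nectin3*, -1.94 for *Hepacam* and -1.13 for *Igsf11*. These 3 passed with each of the 6 samples left out in turn.

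*Cadm3* was listed at 0, 0.02 and 0.02 FPKM in the adult controls, with at most 2 estimated counts in a library, and at 0.45, 2.13 and 1.14 in the knockout-labelled samples. Set against a floor of 3 counts per library, its mean after TMM scaling was at least 16.1-fold higher in the knockout-labelled samples, and the lowest of them was at least 6.7-fold higher. Its neighbour *Aim2*, on the opposite strand, was at 0.17 to 0.27 FPKM in the controls and at 2.18 to 2.88 in the knockout-labelled samples, through which alone it passed the filter, and the handling of strand is not given in the sources used here. The counts of *Aim2* were whole numbers in all 6 samples. Those of *Cadm3* were not whole in the 3 knockout-labelled samples, where *Ackr1* held the remainder with 2.55 to 4.48 estimated counts.

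**Figure D3:**
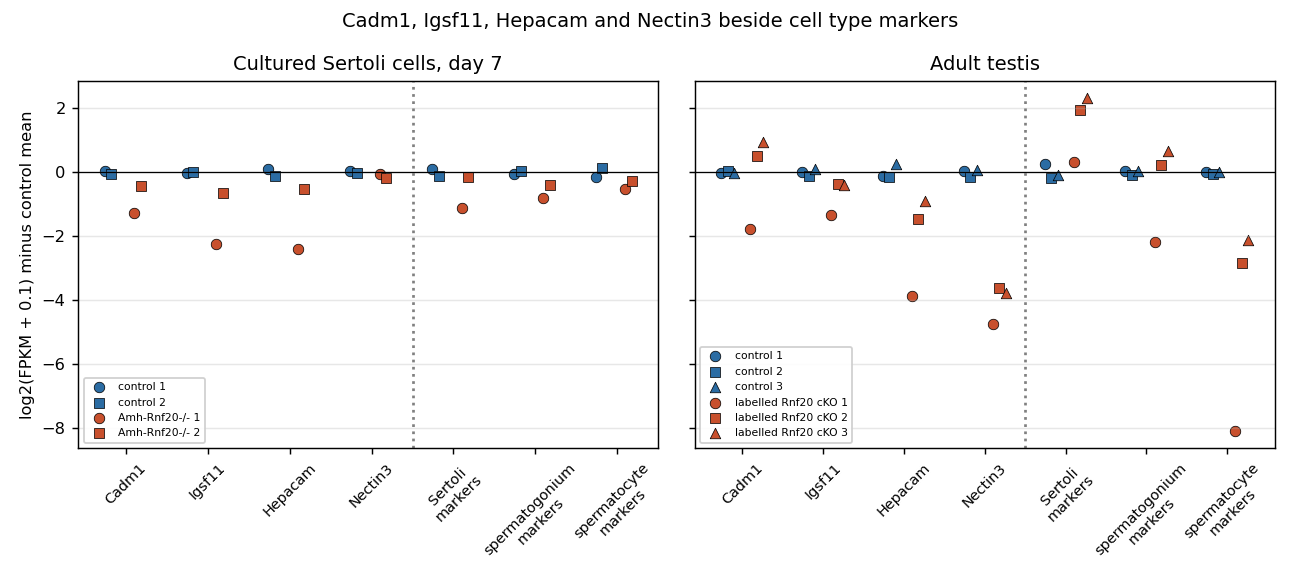
log2(FPKM + 0.1) minus the control mean for *Cadm1*, *Igsf11*, *Hepacam* and *Nectin3*, and for the mean of the Sertoli, spermatogonium and spermatocyte marker lists, 1 point per sample, at day 7 (left) and in adult testis (right). In adult testis replicate 1 of the knockout-labelled samples is the lowest for all 4 genes and for the 3 lists among the knockout-labelled samples.

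Markers of Leydig cells, macrophages and stromal fibroblasts took a larger share of the knockout-labelled libraries, while the sums of the 8 peritubular myoid markers overlapped. The myoid sums ran from 301 to 373 FPKM in the controls and from 253 to 474 in the knockout-labelled samples. Of the myoid markers 6 passed as higher and 1 as lower. The lower one was *Actg2*, with a mean of 290 FPKM in the controls and 2.50 in the knockout-labelled samples. The control sums of the myoid list rest largely on that gene. The mean log2(FPKM + 0.1) of the myoid list did not overlap, at 2.41 to 2.55 in the controls and 4.10 to 4.85 in the knockout-labelled samples. All 7 Leydig markers, all 7 macrophage markers and all 6 stromal fibroblast markers passed as higher, *Cd163* among the macrophage markers through the knockout-labelled samples alone, with summed FPKM of 4044 to 5640 against 65035 to 89587 for the Leydig list. Of the 18 Sertoli markers 8 passed as higher and 1 as lower. Of all genes tested, 40.9% passed as higher and 40.6% as lower. The sum of the Sertoli markers went from between 1100 and 1470 to 3111 in replicate 1 and to 6392 and 7545 in the other 2. Relative to the mean of the Sertoli markers of the same sample, *Nectin2* differed by -0.0066 on the log2 scale between the groups (exact permutation p = 1), and its groups overlapped. *Nectin3* (-5.57), *Cadm2* (-4.14), *Hepacam* (-3.61), *Igsf11* (-2.24) and *Cadm1* (-1.64) were lower in every knockout-labelled sample and *Cadm3* (1.81) was higher in every one. The exact permutation p was 0.1 for each of these 6, the smallest that 3 samples against 3 allow. Without knockout-labelled replicate 1 the 6 differences were -5.83, -4.58, -3.32, -2.52, -1.42 and 1.73 in the same order, and that of *Nectin2* was -0.32. On this scale 63.2% of all genes tested did not overlap. With a pseudocount of 1 the difference of *Cadm3* changed sign to -0.28 and that of *Cadm2* was -2.19.

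Ratios between members within a sample do not depend on the scaling between samples, and they put known partners side by side. The ratio of *Nectin3* to *Nectin2* (FPKM + 0.1) was 6.53, 7.85 and 6.84 in the adult controls and 0.137, 0.176 and 0.136 in the samples labelled as knockout. *Nectin3* was the more abundant partner in every control and *Nectin2* in every knockout-labelled sample, a log2 difference of -5.57 (exact two-sided permutation test, p = 0.1). In the day 7 cells *Nectin2* was the more abundant in all 4 samples, with ratios of 0.0707 and 0.0714 in the controls and of 0.111 and 0.0731 in the *Amh-Rnf20*-/- cells, a log2 difference of 0.34 (exact permutation p = 0.333). Without knockout replicate 1 this day 7 difference was 0.041, so that its size rests on that sample.

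The ratio of *Cadm1* to *Pvr*, its partner on Sertoli cells, was 8.79, 9.97 and 8.35 in the adult controls and 0.782, 2.40 and 2.10 in the knockout-labelled samples, without overlap. The log2 difference was -2.51 (exact permutation p = 0.1). *Pvr* itself rose in adult testis, from 2.04, 1.86 and 2.13 FPKM to 7.05, 11.1 and 17.4 (log2 fold change 1.69, SE 0.31, adjusted p = 0.00256 by edgeR). At day 7 *Pvr* overlapped between groups, and the ratio of *Cadm1* to *Pvr* was 0.772 and 0.673 in the controls, against 0.365 and 0.545 in the *Amh-Rnf20*-/- cells, a log2 difference of -0.69 (exact permutation p = 0.333). Without replicate 1 of the knockout group it was -0.40 at day 7 and -2.004 in adult testis.

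The ratio of *Cadm1* to *Nectin2* differed by -1.63 on the log2 scale in adult testis (exact permutation p = 0.1) and by -0.39 at day 7 (exact permutation p = 0.333), without overlap in either. The ratio of *Cadm4* to *Cadm1* differed by 0.29 at day 7 (exact permutation p = 0.333) and by 1.35 in adult testis (exact permutation p = 0.2), where the groups overlapped. Without replicate 1 of the knockout group the ratio of *Cadm1* to *Nectin2* differed by -0.20 at day 7 and by -1.09 in adult testis, and that of *Cadm4* to *Cadm1* by 0.10 and by 0.47. With a pseudocount of 1 the adult difference of *Cadm4* to *Cadm1* was 0.68. The ratio of *Cadm4* to *Cadm1* was between 2.70 and 3.86 in all day 7 cells and at most 0.256 in adult testis, a level set across tables that were made separately. Over the 26 comparisons of ratios and of levels relative to Sertoli markers, the smallest Benjamini-Hochberg adjusted value was 0.289 (exact permutation tests).

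**Figure D4:**
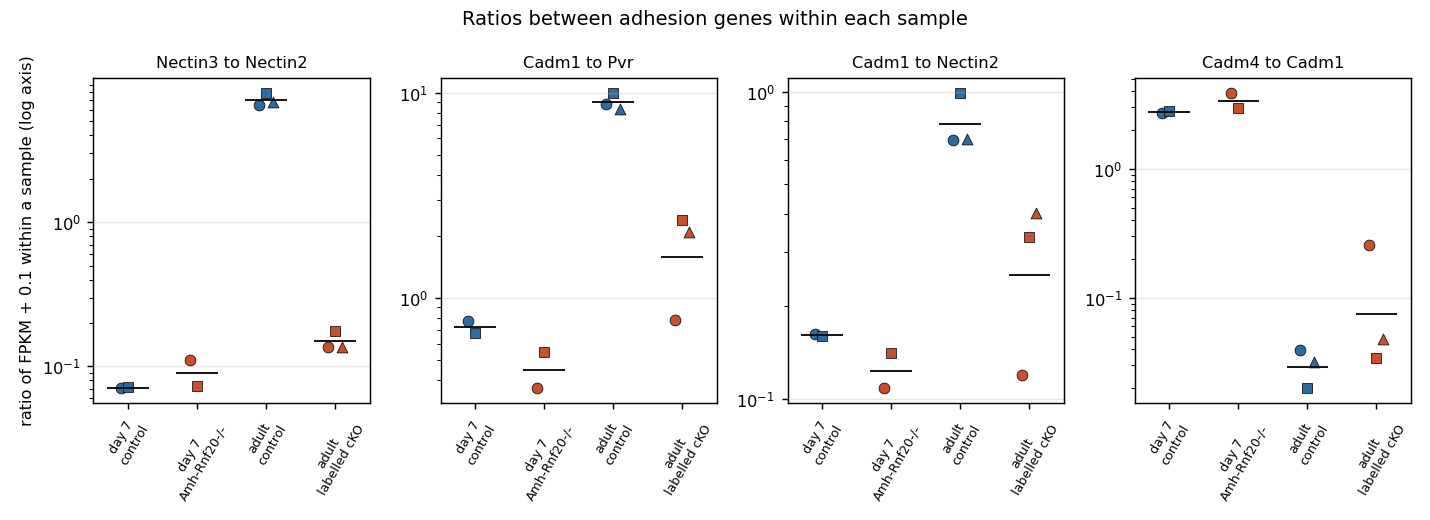
Ratios of FPKM + 0.1 between pairs of adhesion genes within each sample, on log axes that differ between panels, for the 4 groups (2 or 3 points each, the line is the geometric mean). *Nectin3* to *Nectin2* runs from 6.53 to 7.85 in adult controls, against 0.136 to 0.176 in the samples labelled as knockout.

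Cytoplasmic and surface partners of nectins and CADMs were followed in a list of 22 genes. At day 7 none of the 17 tested passed (median log2 fold change -0.10; 0% of all genes called), and *Afdn*, which codes for afadin, was at 11.7 and 11.4 FPKM in the controls and at 15.01 and 9.44 in the *Amh-Rnf20*-/- cells, an overlap. In adult testis 9 of 20 passed as higher and 6 as lower, beside 40.9% and 40.6% of all genes, with a median of 0.46 beside 0.01 over all genes. Of these 20, 4 passed the filter on low values through 1 group alone and had to differ: *Crtam*, *Tigit*, *Mpp2* and *Cask*. *Mpp1* (3.44) and *Cask* (3.31), membrane-associated guanylate kinase scaffolds, had the most positive log2 fold changes. *Cask*, a known binder of CADM tails, was at 0.20 to 0.25 FPKM in the controls and at 3.61 to 4.28 in the knockout-labelled samples. *Cd96*, a receptor for PVR, fell by 5.56 on the log2 scale (adjusted p = 2.75e-05 by edgeR). *Crtam*, a receptor for CADM1 on lymphocytes, was at 0.82, 11.1 and 0.91 FPKM in the controls and at 0.15 at most in the knockout-labelled samples. Its fitted log2 fold change was -6.64, and -4.27 without control replicate 2; limma on log2(FPKM + 1) did not call it (adjusted p = 0.0679), and DESeq2 gave it no adjusted p. *Afdn* was at 3.54, 3.17 and 4.09 FPKM in the adult controls and at 5.28, 4.72 and 5.56 in the knockout-labelled samples. Its log2 fold change was -0.33 after TMM scaling (adjusted p = 0.056 by edgeR) and 0.53 with total-count scaling (adjusted p = 0.0141), so its direction turned with the scaling.

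Relatives and partners of IGSF11 and HEPACAM formed a list of 15 genes. At day 7 none of the 10 tested passed (median -0.11), and in adult testis 8 of 13 passed as higher and 2 as lower (median 1.81), where 40.9% of all genes passed as higher and 40.6% as lower. The falls were *Mlc1*, the membrane partner of HEPACAM, and *Hepacam2*, its closest relative in the list. *Mlc1* was at 20.7, 17.6 and 21.3 FPKM in the adult controls and at 0.03, 2.75 and 3.83 in the knockout-labelled samples, with a log2 fold change of -4.10 (SE 1.05, adjusted p = 0.0108 by edgeR). As for *Hepacam*, replicate 1 was the lowest and replicate 3 the highest of the knockout-labelled samples. *Hepacam2* had a log2 fold change of -2.56 (adjusted p = 0.000543 by edgeR). *Clcn2*, the chloride channel held by HEPACAM, went the other way, from 6.36 ± 0.812 to 41.3 ± 4.64 FPKM (SD, n = 3 each; log2 fold change 1.81, SE 0.14, adjusted p = 7.81e-05 by edgeR). The most positive log2 fold changes were those of *Vsir* (3.71), an immune checkpoint protein that can bind IGSF11, and *Esam* (3.502), an adhesion molecule of endothelium. *Vsir* was at 0.32 to 0.44 FPKM in the controls and at 8.7 to 8.95 in the knockout-labelled samples, and passed the filter through the latter alone. Endothelial markers passed as higher in 5 of 7 there, of which *Kdr* passed the filter through the knockout-labelled samples alone.

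The genes with the most similar profile were taken over the 10 samples and 12377 genes tested in both tables, as the root mean square difference of log2(CPM + 1) centred within each table. They were *Cep63* (0.136) and *Coil* (0.139) for *Nectin3*, *Fastkd1* (0.102) and *Prps1* (0.108) for *Nectin2*, and *Rdm1* and *Sema3b* (0.212 each) for *Nectin1*. For *Cadm1* they were *Ctnnd2* (0.193) and *Lrp11* (0.202), and for *Cadm4* they were *Sertad4* (0.142) and *Rnf20* itself (0.143). *Igsf11* was nearest to *Wee1* (0.239) and *Cdsn* (0.246), and *Hepacam* to *Gmnn* (0.288) and *Limch1* (0.297). Among the members, the closest pair was *Cadm4* and *Nectin2* (0.329, beside medians over all genes of 0.631 and 0.647), *Igsf11* lay closest to *Cadm1* (0.523) and *Hepacam* to *Igsf11* (0.576), beside medians of 1.03 for *Igsf11* and 1.44 for *Hepacam*. *Nectin2* and *Nectin3* were 2.13 apart. The profiles share libraries and scaling and are given as a description.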

How the data were processed

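RNA-seq values of 4 samples of cultured mouse Sertoli cells and 6 of adult testis were analysed within 2 separate tables. For the day 7 cells the authors used HISAT on GRCm38.p6, Bowtie2 on reference genes and RSEM for FPKM; for the adult table the processing is taken as the same only from its column names. The deposited estimated counts are not normalized, the deposited FPKM correct for gene length and depth, and the deposited TPM, with 1 total for all samples, served in an alternative. Versions, read filters and strand handling are not given in the sources used here. The adult table has 20 empty columns, which were not used.

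Estimated counts were rounded to whole numbers. Genes with FPKM of at least 0.5 in at least 2 (day 7) or 3 (adult) samples were tested with edgeR 4.0.16 (quasi-likelihood, TMM, Benjamini-Hochberg over all genes tested, R 4.3.3), 12880 at day 7 and 15919 in adult testis; standard errors were derived from the fold change and the F statistic. The script was tested on simulated data. Ratios were taken on log2(FPKM + 0.1) and compared by an exact permutation test, two-sided. Groups came from the labels. Alternatives were RLE and total-count scaling, DESeq2 1.42.0, limma 3.58.1 on log2(FPKM + 0.1) or log2(FPKM + 1), other filters, the study's thresholds, a replicate block and each sample left out; a limma fold change understates low genes. The members, lists and rules were chosen with earlier results of these data known. Named genes were the 9 members, *Rnf20*, *Pvr*, *Afdn*, the 2 largest rises and 2 largest falls past an adjusted p of 0.05 per list, and the 2 nearest profiles per member. Others were added for context after their values were seen. These were *Aim2*, *Ackr1*, *Sox9*, *Wt1*, *Clu*, *Fshr*, *Actg2*, *Clcn2*, *Tigit*, *Mpp2*, 4 glial and neuronal markers and the markers named for the filter. Counts were low for *Cadm2* and, in adult testis, for *Cadm3* and *Cadm4*.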

Additional observations from a re-analysis of the deposited data

Results flagged for a closer look

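*Nectin2* lay in opposite directions in the 2 tables on TMM-scaled counts. Its log2 fold change was -0.42 in the day 7 cells (adjusted p = 0.351 by edgeR), with both *Amh-Rnf20*-/- samples below both controls. In adult testis it was 0.83 (adjusted p = 0.0244 by edgeR), with every sample labelled as knockout above every control. That call was lost with RLE scaling and with DESeq2. Of all genes tested, 51% did not overlap at day 7 and 85.5% in adult testis. Relative to the mean of the Sertoli markers *Nectin2* overlapped in both tables (0.18 and -0.0066), and with their median it was 0.86 at day 7. The ratio of *Nectin3* to *Nectin2* also differed in opposite directions, by 0.34 on the log2 scale at day 7 and by -5.57 in adult testis, without overlap in either, but at day 7 it was 0.041 without knockout replicate 1. The level of *Cadm2* relative to Sertoli markers differed by 0.75 at day 7 and by -4.14 in adult testis, and at day 7 *Cadm2* had 5 estimated counts at most in a sample, so that its difference there follows the markers. The differences between the tables were not tested, since the tables were made separately and hold cultured cells and whole testis. Groups of 2 and 3 samples are too small for a test of single outlying samples.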

How the results depend on the processing

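At day 7 the count of members passing an adjusted p of 0.05 was 0, and the count of all genes was 0. DESeq2 gave 1 member (*Cadm3*) and 579 genes. Leaving out 1 sample gave 0 to 7 members and 0 to 5136 genes, with 0 genes when a control was left out. In adult testis the study's thresholds gave 2 members and 7432 genes in place of 5 and 12969, and every other alternative stayed within 1.5 times those counts, leaving-one-out included (4 to 5 members and 12018 to 13757 genes), though not always with the same members: total-count scaling gave 3 higher and 2 lower, limma 3 and 3. *Nectin3* at day 7 went from -0.05 to 0.025 without knockout replicate 2 (-0.14 without replicate 1), *Cadm1* in adult testis went to 0.27 with total-count scaling, *Cadm1* relative to Sertoli markers at day 7 went to 0.47 with the median of the markers, and *Cadm3* relative to Sertoli markers in adult testis went to -0.28 with a pseudocount of 1, and the cause was not tested. Of the log2 fold changes of single members, 81 of 96 values at day 7 and 91 of 110 in adult testis kept their direction and their side of the threshold. *Nectin2* in adult testis lost its call with RLE scaling, with DESeq2 and on leaving out 5 of the 6 samples in turn (adjusted p up to 0.0854). All 32 values of the adult ratios and all 24 of the day 7 ratios kept their direction.

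Same-numbered samples showed no visible shared deviation, with correlations of 0.0316 at day 7 and of 0.00758, 0.00623 and 0.0273 in adult testis. At day 7 the deviations within a group mirror each other, so all pairs hold a single value up to its sign. Such small correlations cannot exclude that samples were paired. With the replicate number as a block, 0 genes were called at day 7 and 12209 in adult testis, and *Nectin2* had an adjusted p of 0.0628.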

Other observations

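A list of 22 other immunoglobulin-type adhesion genes, kept apart from the families above, gave no pass among 16 tested at day 7 (median log2 fold change 0.02, edgeR). In adult testis 13 of 17 passed as higher and 3 as lower, with a median of 2.15, beside 40.9% higher and 40.6% lower of all genes. The most positive log2 fold changes were those of *Icam1* (4.07), a leukocyte adhesion receptor, and *Thy1* (3.65), a surface protein of stromal cells and stem cells. *Thy1* was at 0.20 to 0.37 FPKM in the controls and at 4.77 to 8.17 in the knockout-labelled samples, and it passed the filter on low values through the latter alone. The largest falls were *Chl1* and *Ncam1*, neural cell adhesion molecules. *Chl1* went from 83.7, 73.4 and 93.0 FPKM in the controls to 0.26, 1.43 and 1.52 in the samples labelled as knockout (log2 fold change -7.16, SE 0.75, adjusted p = 0.000234 by edgeR). *Ncam1* had a log2 fold change of -1.62 (adjusted p = 0.0143 by edgeR) and did not pass with total-count scaling (-0.78, adjusted p = 0.137, the highest over the alternatives).

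With 2 samples per group at day 7 and the *Amh-Rnf20*-/- samples far from each other, the sizes given for those cells are not settled by these data. The adult samples are whole testis, their labels have no check from *Rnf20*, and germ cell, Leydig, macrophage and stromal markers moved with the groups. The values describe transcripts, and protein at the cell contacts was not analysed here.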
